A study of Mus musculus with 10 samples.

Results

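The Lgr5 stem cell and Wnt feedback genes are 10 genes that mark the base of the intestinal crypt or are switched on by Wnt signalling there: Lgr5, Ascl2, Olfm4, Smoc2, Axin2, Rnf43, Znrf3, Tnfrsf19, Rgmb and Lrig1. They were taken by name, and all 10 were found among the 55414 genes of the count files and passed the filter on low counts, which kept 18654 genes. RNA came from the jejunum (mid small intestine) of male C57BL/6J mice and was sequenced in 10 libraries. The 5 control libraries have the genotype RetSat flox/flox villin-Cre-ERT2 (-), and the 5 RetSat ko libraries have RetSat flox/flox villin-Cre-ERT2 (+). Both groups therefore carry floxed alleles of Retsat, the gene of the retinol-converting enzyme retinol saturase. Both received tamoxifen for 5 days and were then fed a high-fat diet, in which fat supplied 60% of calories, over 14 weeks. The villin promoter drives the tamoxifen-activated Cre recombinase in the intestinal epithelium, so other cells of the jejunum keep Retsat. Cre was present in RetSat ko only, and its presence and the loss of Retsat cannot be told apart.

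Stem cells at the crypt base renew the whole epithelium, and Wnt signals from Paneth cells and from the tissue below hold them in the stem cell state. Wnt proteins bind Frizzled and Lrp receptors, which frees beta-catenin to work with TCF factors in the nucleus. R-spondins, bound by Lgr receptors, keep the receptors at the cell surface by blocking the ubiquitin ligases Rnf43 and Znrf3. Because beta-catenin switches on Axin2, Rnf43 and Znrf3, which dampen the pathway, these genes serve as feedback brakes and as readouts of Wnt activity.

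No gene of the 10 was called changed between the genotypes. In edgeR's quasi-likelihood test with Benjamini-Hochberg adjustment over all genes, 0 of the 10 passed an adjusted p of 0.05 (0.0322% of all genes tested did, and 0.0214% in the direction higher in RetSat ko), and adjusted p ran from 0.307 to 0.700. DESeq2 and limma-voom, with and without sample weights, also called 0. At an unadjusted p under 0.05 there were 2, Rgmb and Ascl2, both higher in RetSat ko. Of all genes, 12.2% lay under that value and 6.79% lay under it with a higher level in RetSat ko. The log2 fold change was positive, meaning higher in RetSat ko, for 9 genes and negative for Rnf43, while 53.9% of all genes had a positive value. The median over the 10 was 0.20 and over all tested genes 0.020. In none of them did the groups separate without overlap, while 1.57% of all genes had every RetSat ko library above every control library. The 95% intervals of all 10 fold changes stayed within 2-fold in either direction, and 8 of them included no change. In bulk tissue, fewer cells of a type and less RNA per cell cannot be told apart.

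Retsat itself was at 340.1 to 576 CPM in control and 15.4 to 33.4 CPM in RetSat ko, where CPM is counts per 1000000 of the TMM-scaled library size. Libraries held 102844680 to 128730695 counts, so each gene rested on many reads: the lowest count of any member was 197, for Tnfrsf19. Of the marker lists, absorptive enterocyte genes had the highest sum in every library, though such genes do not tell jejunum from other small intestine. Absorptive enterocyte markers summed to 57933 to 87410 CPM in control and 52988 to 79785 CPM in RetSat ko. No enterocyte marker of 14 had a positive log2 fold change (median -0.37), while all 12 Paneth cell markers did (median 0.83), and 0 of either list passed in edgeR. Their part in the differences below was not tested. The labels do not say outright that each library came from its own mouse. The p-values therefore measure spread among these libraries, which may be technical.

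Promoter windows are shown for Rgmb and Ascl2, which had the smallest p, and for Axin2, the general Wnt feedback gene. Each runs over the 250 bases before the transcription start in RefSeq on GRCm38.p6, a build older than that of the counts, and the windows hold no exon of the GENCODE M21 annotation. Capitals mark TATAAA, the letters of a TATA box.
Ascl2, chr7:142969265-142969514, minus strand: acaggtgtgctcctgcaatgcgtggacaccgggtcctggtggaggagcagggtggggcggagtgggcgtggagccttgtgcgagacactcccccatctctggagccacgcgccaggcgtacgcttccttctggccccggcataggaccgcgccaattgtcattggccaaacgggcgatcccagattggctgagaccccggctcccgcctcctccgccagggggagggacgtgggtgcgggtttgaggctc
Axin2, chr11:108920099-108920348, plus strand: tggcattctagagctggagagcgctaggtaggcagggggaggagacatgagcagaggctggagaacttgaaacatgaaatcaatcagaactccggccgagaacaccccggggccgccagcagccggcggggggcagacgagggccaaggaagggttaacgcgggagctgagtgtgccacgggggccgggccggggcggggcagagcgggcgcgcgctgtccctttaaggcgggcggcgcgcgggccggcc
Rgmb, chr17:15831247-15831496, minus strand: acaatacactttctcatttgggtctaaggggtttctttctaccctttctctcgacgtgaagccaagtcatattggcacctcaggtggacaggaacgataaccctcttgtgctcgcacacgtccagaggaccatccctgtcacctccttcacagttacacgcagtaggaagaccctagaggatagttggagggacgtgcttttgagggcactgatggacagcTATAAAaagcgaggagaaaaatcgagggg
In the Rgmb window shown, TATAAA begins 29 bases before the start. Rgmb has other starts as well: the same letters begin 210 bases before another start, and a further window holds none. Promoter entries were found for 7 of the 10 genes, with 11 windows of 300 bases that include 50 bases after the start. Entries were missing for Lgr5, Smoc2 and Znrf3. On either strand, CTTTGA, the core letters bound by TCF factors, was in 1 of the 11 windows (Tnfrsf19) and in 16.0% of all 32851 windows. CAGCTG, an E-box of the kind bound by factors such as Ascl2, was in 1 window (Tnfrsf19) and in 16.3% of all. TATAAA was in 2 overlapping windows, both of Rgmb, and in 13.6% of all.

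Per length of exon, Olfm4 stood far above the rest. Levels between genes are given as RPKM, the CPM per kilobase of exon. Olfm4, a secreted glycoprotein of crypt base cells, had 168.3 ± 27.8 RPKM in control and 204.1 ± 33.0 RPKM in RetSat ko (SD, n = 5 each). Its RPKM was 19.5 to 26.5 times that of the next gene, Lrig1, over the 10 libraries. Lrig1 (7.40 ± 0.693 RPKM in control), Smoc2 (7.11 ± 0.920), Rnf43 (5.22 ± 0.658), Axin2 (4.94 ± 0.707) and Rgmb (3.90 ± 0.292) followed. Lrig1 was above Smoc2 in 4 of 5 control and 1 of 5 RetSat ko libraries, and Axin2 was above Rnf43 in 3 of 5 control and 4 of 5 RetSat ko libraries, so the order within these pairs was not fixed. Rnf43 was above Rgmb in 5 of 5 control libraries and in 1 of 5 RetSat ko libraries, where the levels were 4.53 ± 0.687 and 4.64 ± 0.447 RPKM. These differences in order were noticed in the values and were not tested. Ascl2 had 2.50 ± 0.585 RPKM in control, below Rgmb in all 10 libraries and above Znrf3 in all 10. Znrf3 (0.616 ± 0.0304), Tnfrsf19 (0.549 ± 0.0915) and Lgr5 (0.475 ± 0.0964) were lowest. Znrf3 was above Tnfrsf19 in 5 of 5 control and 3 of 5 RetSat ko libraries, and Tnfrsf19 above Lgr5 in 4 and 3. By mean RPKM over the 10 libraries, Lgr5 lay above 32.6% of all tested genes and Olfm4 above 98.4%.

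Lgr5 encodes the R-spondin receptor that defines crypt base stem cells (ENSMUSG00000020140.16, chromosome 10, 115286216 to 115423685, minus strand, GRCm39). The control libraries 1 to 5 held 5.51, 5.18, 4.96, 3.16 and 5.56 CPM, and the RetSat ko libraries 1 to 5 held 3.56, 6.04, 6.35, 5.94 and 6.19 CPM. RetSat ko 2 to 5 were above every control library, and RetSat ko 1 was below all control libraries but control 4. The log2 fold change was 0.21 ± 0.186 (SE, edgeR adjusted p = 0.677), and the fold change of 1.15 had a 95% interval of 0.872 to 1.53. The SD was 20.3% of the mean in control and 20.6% in RetSat ko. Counting error at the lowest count of Lgr5, 364, is 5.24%.

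Ascl2, the transcription factor that keeps the stem cell state under Wnt control, had the largest difference (ENSMUSG00000009248.7, chromosome 7, 142520566 to 142523001, minus strand). Control 1 to 5 held 5.29, 3.44, 3.29, 3.40 and 4.88 CPM, and RetSat ko 1 to 5 held 4.26, 7.28, 5.49, 4.30 and 6.43 CPM. All 5 RetSat ko libraries were above the control mean and 3 were above the highest control library. Its log2 fold change was 0.45 ± 0.191 (unadjusted p = 0.0358, edgeR adjusted p = 0.377), or 1.37-fold with an interval of 1.02 to 1.82.

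Olfm4 (ENSMUSG00000022026.8, chromosome 14, 80221521 to 80260579, plus strand) was at 552, 512, 424, 406 and 599 CPM in control 1 to 5. In RetSat ko 1 to 5 it was at 451, 684, 665, 563 and 659 CPM. RetSat ko 2, 3 and 5 were above every control library, and RetSat ko 1 lay between control 2 and control 3. Its log2 fold change was 0.28 ± 0.140 (edgeR adjusted p = 0.441). Of its exonic bases, 5.17% are shared with Gm6999 on the same strand.

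Smoc2, a secreted calcium-binding protein enriched in Lgr5 cells and also made outside the epithelium, had a similar spread (ENSMUSG00000023886.11, chromosome 17, 14499768 to 14625052, plus strand). Control 1 to 5 held 53.8, 49.8, 39.5, 48.1 and 56.0 CPM, and RetSat ko 1 to 5 held 44.6, 66.9, 67.6, 54.9 and 61.3 CPM. RetSat ko 2, 3 and 5 were again above every control library. For Smoc2 the log2 fold change was 0.26 ± 0.122 (edgeR adjusted p = 0.419).

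**Figure D1:**
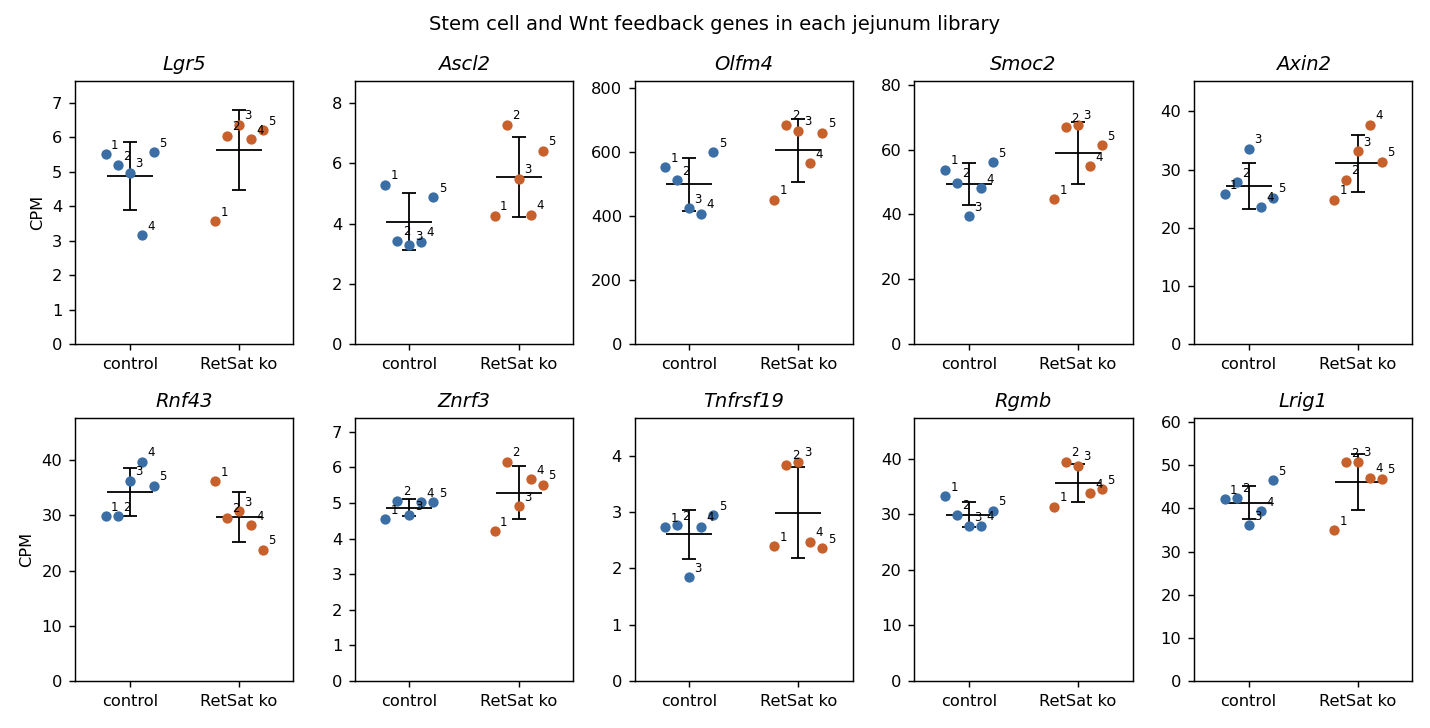
CPM of each of the 10 genes (vertical axis, from 0) in the 5 control and 5 RetSat ko libraries, with the replicate number beside each point and the mean and SD in black. RetSat ko 1 is the lowest library of its group in 8 of the 10 genes, and Rnf43 is the gene in which RetSat ko 1 is the highest of its group.

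Axin2, a scaffold of the complex that destroys beta-catenin, had 25.7, 27.8, 33.6, 23.6 and 25.2 CPM in control 1 to 5 and 24.8, 28.3, 33.1, 37.7 and 31.3 CPM in RetSat ko 1 to 5 (ENSMUSG00000000142.16, chromosome 11, 108811175 to 108841609, plus strand). Only RetSat ko 4 exceeded the highest control library, control 3. Axin2 had a log2 fold change of 0.19 ± 0.120 (edgeR adjusted p = 0.531). An antisense gene, Gm11670, covers 3.80% of its exonic bases, and the counting command sets no strand.

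The 2 related ligases that remove Frizzled from the cell surface did not point the same way. Rnf43 (ENSMUSG00000034177.16, chromosome 11, 87553548 to 87626365, plus strand) was at 29.9, 29.8, 36.3, 39.8 and 35.4 CPM in control 1 to 5 and at 36.3, 29.6, 30.8, 28.3 and 23.8 CPM in RetSat ko 1 to 5. RetSat ko 2, 4 and 5 were below every control library and RetSat ko 1 was above the control mean. For Rnf43 the log2 fold change was -0.20 ± 0.114 (edgeR adjusted p = 0.483), or 0.868-fold with an interval of 0.731 to 1.03. No other gene shares exonic bases with Rnf43. Znrf3 (ENSMUSG00000041961.15, chromosome 11, 5226324 to 5394847, minus strand) ranged from 4.55 to 5.06 CPM in control and from 4.21 to 6.16 CPM in RetSat ko, with a log2 fold change of 0.12 ± 0.113 (edgeR adjusted p = 0.687). The control libraries of Znrf3 lay close together, with an SD of 4.94% of the mean, against 14.2% in RetSat ko. On the RPKM scale the ratio of Rnf43 to Znrf3 was 7.10 to 9.53 in control and 5.20 to 10.4 in RetSat ko, with means of 8.48 ± 1.02 and 6.98 ± 2.08 (SD, n = 5 each), so the groups overlapped. This ratio was formed after the values were seen and was not tested.

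Tnfrsf19, the Wnt-induced receptor also called Troy, was the least precisely measured (ENSMUSG00000060548.14, chromosome 14, 61201324 to 61283939, minus strand). It ranged from 1.84 to 2.94 CPM in control and from 2.35 to 3.89 CPM in RetSat ko, where RetSat ko 2 and 3 held 3.84 and 3.89 CPM and the other 3 held 2.35 to 2.47 CPM. Tnfrsf19 had a log2 fold change of 0.20 ± 0.193 (edgeR adjusted p = 0.700).

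Rgmb, a co-receptor for bone morphogenetic proteins, had the smallest p of the 10 (ENSMUSG00000048027.10, chromosome 17, 16023450 to 16051301, minus strand). Control 1 to 5 held 33.3, 29.9, 27.8, 27.97 and 30.7 CPM, and RetSat ko 1 to 5 held 31.4, 39.5, 38.7, 33.8 and 34.6 CPM. All RetSat ko libraries were above the control mean, and 4 were above the highest control library. The log2 fold change was 0.25 ± 0.0794 (unadjusted p = 0.00831, edgeR adjusted p = 0.307), or 1.19-fold with an interval of 1.05 to 1.34.

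Lrig1, a membrane protein that restrains EGF receptors and marks stem cells, split in the same way as Lgr5 (ENSMUSG00000030029.15, chromosome 6, 94581510 to 94677139, minus strand). Control 1 to 5 held 42.1, 42.5, 36.1, 39.4 and 46.5 CPM, and RetSat ko 1 to 5 held 34.9, 50.8, 50.9, 47.1 and 46.9 CPM. RetSat ko 2 to 5 exceeded every control library and RetSat ko 1 was the lowest of all 10. The log2 fold change was 0.16 ± 0.104 (edgeR adjusted p = 0.552). On the opposite strand Slc25a26 covers 2.58% of its exonic bases.

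**Figure D2:**
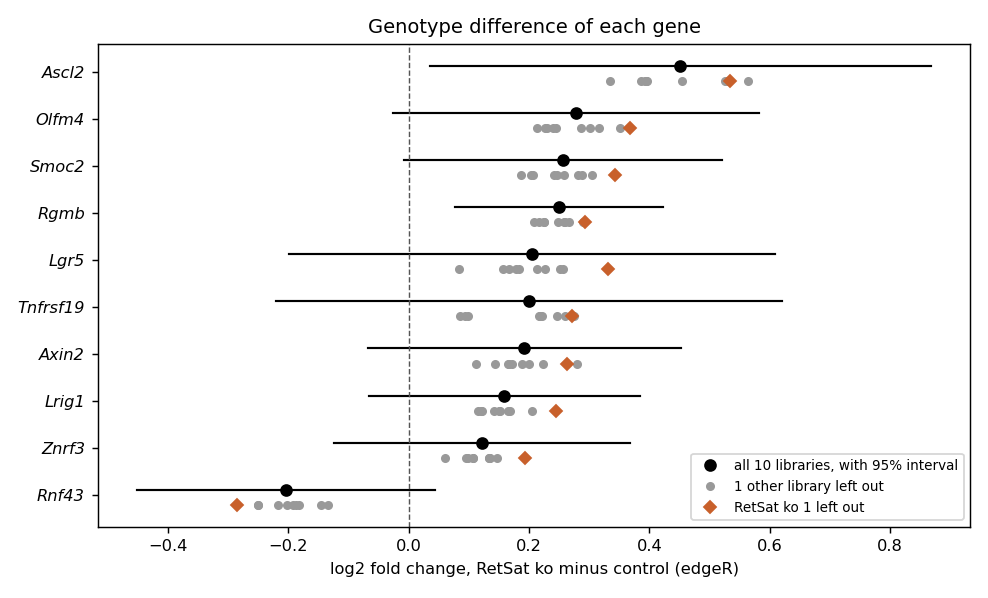
Log2 fold change of RetSat ko minus control for each gene (horizontal axis), with all 10 libraries and its 95% interval in black, and with each library left out in turn below it. Leaving out RetSat ko 1 moves Lgr5 from 0.21 to 0.33 and leaving out control 4 moves it to 0.084, and no single library turns the direction of any of the 10 genes.

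The values depended on which libraries entered the fit. Without RetSat ko 1, 1 of the 10, Rgmb, passed the threshold in edgeR (log2 fold change 0.29, adjusted p = 0.0484), in a fit in which 4.45% of all genes passed and 1.95% passed as higher in RetSat ko. Without it, 8 genes had an unadjusted p under 0.05, all but Znrf3 and Tnfrsf19, in a fit in which 23.7% of all genes did, and the median log2 fold change of the 10 was 0.28. Rgmb was the only gene under 0.05 when control 2 or 4 or any 1 of RetSat ko 2, 3 and 5 was left out, and without control 5 there were 4 (Ascl2, Olfm4, Smoc2 and Rgmb), with 8.18% to 12.8% of all genes under it in these fits. Leaving out RetSat ko 1 also moved Lgr5 to 0.33, Lrig1 to 0.24 and Znrf3 to 0.19. Other libraries moved values toward 0 by over 1.5 times: Lgr5 was at 0.084 without control 4, Axin2 at 0.11 without RetSat ko 4, Znrf3 at 0.061 without RetSat ko 2 and Rnf43 at -0.13 without RetSat ko 5. Tnfrsf19 was at 0.099, 0.093 and 0.086 without control 3, RetSat ko 2 and RetSat ko 3. Marker sums of other tissues also varied between libraries. Pancreatic acinar markers (15 of 15 tested positive, none of 16 at 0) summed to 26.8 to 341.3 CPM in control and 37.3 to 3305 CPM in RetSat ko, and were highest in RetSat ko 2 and 1 and control 5 and 4. Without these 4 libraries 4 genes were under 0.05 (Olfm4, Smoc2, Rgmb and Lrig1), as were 16.3% of all genes. B cell and follicle markers (10 of 10 tested positive) summed to 8.35 to 78.3 CPM in control and 11.9 to 184.6 CPM in RetSat ko. Without the 3 libraries highest in them, control 4 and RetSat ko 2 and 3, 0 genes were under 0.05 in edgeR (4.38% of all genes were), the median was 0.087, and Lgr5 and Tnfrsf19 were at -0.024 and -0.10. Olfm4, Smoc2, Rgmb and Lrig1 were then at 0.091, 0.10, 0.12 and 0.034. Smooth muscle markers (11 of 11 positive) summed to 215.2 to 721.8 CPM in control and 515.3 to 913.4 CPM in RetSat ko. Without RetSat ko 2 and 3, the 2 libraries highest in them, 0 genes were under 0.05 (5.36% of all genes were), the median was 0.11 and Tnfrsf19 was at -0.11.

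The genes varied together from library to library. Over the 45 pairs, Pearson r of log2 CPM across the 10 libraries was positive in 35, with a median of 0.60. In permutation tests adjusted over the 45 pairs, 17 passed 0.05, of which 15 were positive and 2 negative, and 11 passed by Spearman's rho as well. Smoc2 and Lrig1 gave r = 0.95 and rho = 0.94 (permutation p = 3.0e-05 and 0.00025, adjusted 0.00135 and 0.0027), and r = 0.93 without control 3 and RetSat ko 3. Olfm4 and Smoc2 gave r = 0.93 and rho = 0.95 (permutation p = 9.0e-05 and 5.0e-05, adjusted 0.00202 and 0.00225), and r = 0.98 without control 3 and control 4. For Lgr5 and Olfm4 r was 0.85 and rho 0.94 (permutation p = 0.00049 and 0.00019, adjusted 0.00551 and 0.0027), and r was 0.92 without control 4 and RetSat ko 1. Measured as deviations from the genotype means, these r were 0.94, 0.90 and 0.85, so the pairs varied together within the groups as well.

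Rnf43 stood against the others, and Axin2 was less closely tied to them over all 10 libraries. All 9 pairs of Rnf43 were negative, from -0.76 with Lgr5 to -0.14 with Tnfrsf19. With Lgr5, rho was -0.72 (permutation p = 0.00565 for r and 0.0236 for rho, adjusted 0.0231 and 0.0665), and r was -0.61 without control 4 and RetSat ko 1. Axin2 had a median r of 0.32 over its 9 pairs, with 0.085 for Ascl2, 0.18 for Smoc2 and 0.63 for Lgr5, none of which passed the adjusted threshold. This low value rested in part on 2 libraries: without control 3 and RetSat ko 4, r of Axin2 was 0.75 with Rgmb (0.33 over all), 0.72 with Lrig1 (0.35) and 0.42 with Tnfrsf19 (-0.15). With Lgr5 it was 0.25 without control 4 and RetSat ko 1.

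**Figure D3:**
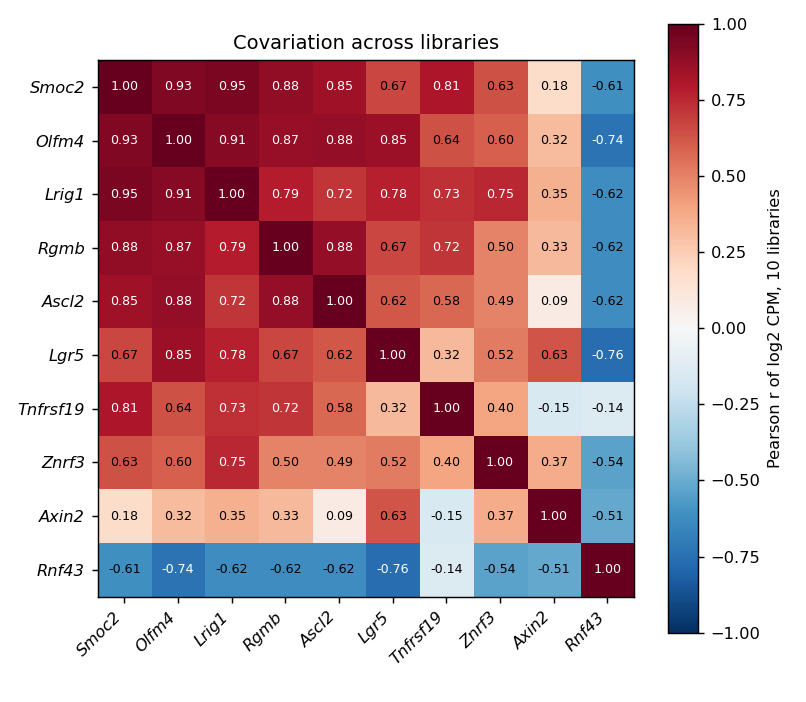
Pearson r of log2 CPM across the 10 libraries for each pair of genes, red for positive and blue for negative. Smoc2, Olfm4, Lrig1, Rgmb and Ascl2 form the block of high values, up to 0.95, and the last row and column, Rnf43, are negative throughout outside the diagonal.

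Against mean log2 CPM of 10 cell type marker lists (100 relations, adjusted together), 6 relations passed by r and 0 by both r and rho. Rnf43 was lower in the libraries with higher cell cycle markers, with r = -0.89 and rho = -0.90 (permutation p = 0.00037 and 0.00105, adjusted 0.0122 and 0.0525), and r = -0.85 both within genotypes and without control 4 and RetSat ko 5. Olfm4 went the other way, with r = 0.83 and rho = 0.82 (permutation p = 0.00414 and 0.00612, adjusted 0.0523 and 0.0624), and r = 0.76 without control 3 and control 4. This was not particular to Olfm4: Lrig1, Smoc2, Lgr5, Rgmb and Ascl2 had r of 0.82, 0.78, 0.78, 0.76 and 0.74. None of these passed by r (adjusted permutation p from 0.0523 to 0.0740). Within genotypes, Lrig1, Smoc2, Lgr5, Rgmb and Ascl2 had r of 0.79, 0.68, 0.78, 0.58 and 0.59. Without the 2 libraries farthest from each gene's median they had 0.71, 0.86, 0.81, 0.80 and 0.46. The cell cycle markers, 20 of 20 with a positive log2 fold change (median 0.29) and 0 past the threshold, summed to 704.5 to 806.6 CPM in control and 685.1 to 995.7 CPM in RetSat ko, where RetSat ko 1 was lowest. Axin2 followed adipocyte markers, with r = 0.93 and rho = 0.90 (permutation p = 0.00029 and 0.00076, adjusted 0.0122 and 0.0525), and r = 0.96 without control 3 and RetSat ko 4. The adipocyte score left a gap between 6 libraries of up to 1.81 and 4 of at least 3.26. The 4 were control 3 and RetSat ko 3, 4 and 5. Within the 6 lower libraries r was 0.97 and rho 0.94. This split was made after the values were seen, so these values carry no test. Adipocyte markers, 6 of 9 with a positive log2 fold change (median 2.04), summed to 289.3 to 749.5 CPM in control and 280.3 to 435.8 CPM in RetSat ko. Their mean log2 CPM, the score used here, did not run like the sum: it averaged 1.15 in control and 2.46 in RetSat ko. Tnfrsf19 followed smooth muscle markers, with r = 0.86 and rho = 0.83 (permutation p = 0.00016 and 0.00435, adjusted 0.0122 and 0.0624), and r = 0.77 without control 3 and RetSat ko 3. With enteric neuron and glia markers, 10 of 10 positive, Tnfrsf19 and Smoc2 had r = 0.82 and 0.80 and rho = 0.61 and 0.66. These did not pass (adjusted permutation p = 0.0531 and 0.0523 for r). Lrig1 and Znrf3 ran against the epithelial markers, 5 of 10 of which had a positive log2 fold change (r = -0.86 and -0.90, rho = -0.83 and -0.82, permutation p = 0.00049 and 0.00089 for r and 0.00453 and 0.00583 for rho, adjusted 0.0122 and 0.0178 for r and 0.0624 for each rho). Without the 2 libraries farthest from the median, these r were -0.69 and -0.66. Other genes ran the same way without passing. Smoc2, Olfm4, Lgr5, Tnfrsf19, Rgmb and Ascl2 had r of -0.78, -0.75, -0.66, -0.63, -0.62 and -0.60 (adjusted permutation p from 0.0605 to 0.153). Axin2 had -0.24, and Rnf43 went the other way with 0.57. Znrf3 with cell cycle markers had r = 0.82 and rho = 0.71 (permutation p = 0.00292 and 0.0264, adjusted 0.0487 and 0.111), and r = 0.73 without RetSat ko 1 and 2. The part of these cell types in the genotype differences was not tested. The fits without the libraries rich in B cell or smooth muscle transcripts cannot decide it, because both left out RetSat ko 2 and 3. These 2 libraries held the highest of the 10 values in 4 of the genes each.

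**Figure D4:**
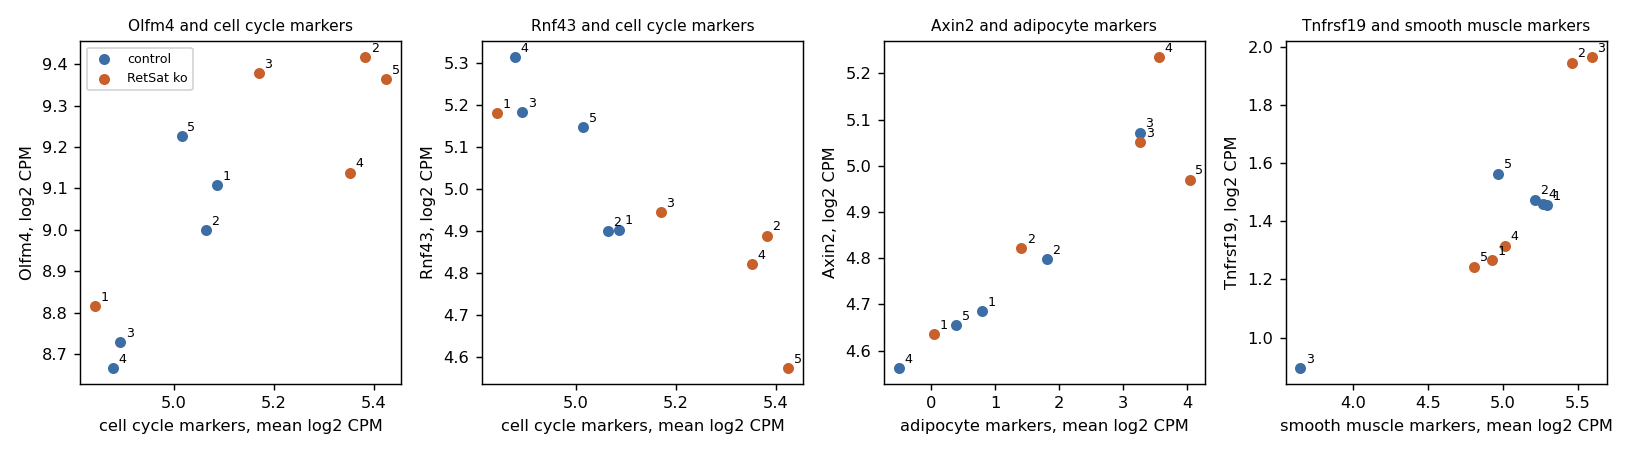
Log2 CPM of Olfm4, Rnf43, Axin2 and Tnfrsf19 (vertical axes) against the mean log2 CPM of a marker list (horizontal axes), 1 point a library with its replicate number, control in blue and RetSat ko in orange. RetSat ko 1 lies beside control 3 and 4 at the low end of the cell cycle markers, where Rnf43 is high and Olfm4 low.

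By Pearson r with Lgr5 over the 10 libraries among 13225 genes of at least 1 CPM, the most alike genes outside the 10 were Galc, Ccl9, Smyd4, Mcc and Mri1, with r of 0.95, 0.95, 0.94, 0.94 and 0.93. Without control 4 and RetSat ko 1, the 2 libraries lowest in Lgr5, r was 0.61 for Galc, 0.90 for Ccl9, 0.79 for Smyd4, 0.95 for Mcc and 0.74 for Mri1. These genes were picked for their r, so it carries no test. In the same ranking Olfm4 came 81st, Lrig1 336th and Rnf43 12580th.

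Of 151 other genes of the Wnt, BMP, EGF receptor and Notch pathways and of the crypt, 138 were tested and 0 passed in edgeR. At an unadjusted p under 0.05 there were 15 (10.9%, against 12.2% of all genes), 6 higher and 9 lower in RetSat ko. DESeq2 called 3 of them, Sox9, Bcl9l and Tnks, where it called 0.661% of all genes. Without RetSat ko 1, edgeR called 8 of them, where it called 4.45% of all genes. Wnt5b and Sox9 were higher, and Tnks, Bcl9l, Gsk3b, Bmpr1a, Erbb2 and Erbb3 were lower. Gsk3b, and Pygo2, Dvl1 and Areg below, were named after their values were seen.

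In the list of Wnt ligands, which also holds Wls and Porcn, not ligands themselves, 12 genes were tested. Of them 2 were under an unadjusted p of 0.05, as were 12.2% of all genes, and 0 passed. Wnt5b lies on chromosome 6 (119409492 to 119521308), as does the floxed gene Retsat (72575458 to 72585408). The part of this position in its level was not tested. Wnt5b was at 1.34 to 1.70 CPM in control, at 0.921 CPM in RetSat ko 1 and at 3.09 to 3.70 CPM in RetSat ko 2 to 5. Its log2 fold change was 0.94 ± 0.298 (edgeR adjusted p = 0.307), and 1.16 ± 0.121 without RetSat ko 1 (adjusted p = 0.00348). Wnt4 had 0.35 ± 0.131 (edgeR adjusted p = 0.332). The R-spondins were low: Rspo2 and Rspo3 had 0.137 and 0.983 CPM in control with log2 fold changes of 0.68 ± 0.337 and 0.21 ± 0.252. Of 17 receptors 0 were under an unadjusted p of 0.05 in edgeR, and Lgr6 and Fzd9, which had the smallest p, were below 1 CPM in every library.

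Inside the cell, 5 of 21 genes that carry the signal were under an unadjusted p of 0.05, as were 12.2% of all genes. The 5 were Pygo2, which was higher (0.15 ± 0.0641), and Tnks, Bcl9l, Gsk3b (-0.21 ± 0.0916) and Dvl1 (-0.14 ± 0.0649), which were lower. Tnks, a tankyrase that promotes the breakdown of Axin proteins, was at 61.7 to 89.9 CPM in control and 49.3 to 60.8 CPM in RetSat ko, without overlap. Its log2 fold change was -0.45 ± 0.0953 (edgeR adjusted p = 0.291, DESeq2 adjusted p = 0.0184). Bcl9l, a beta-catenin co-activator, was at 26.1 to 32.4 CPM in control and 21.0 to 23.6 CPM in RetSat ko, also without overlap, with -0.31 ± 0.0718 (edgeR adjusted p = 0.291, DESeq2 adjusted p = 0.0184). The share of all genes with every RetSat ko library below every control library was not counted. Of 16 antagonists and other feedback genes 0 were under an unadjusted p of 0.05 in edgeR, with -0.26 ± 0.127 for Sp5 and 0.31 ± 0.213 for Nkd1. Among 19 other crypt genes, 15 had a positive log2 fold change, as did 53.9% of all genes, and the median was 0.085. Sox9 had 0.47 ± 0.113 and Prom1 had 0.18 ± 0.0649 (edgeR adjusted p = 0.291 and 0.323).

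In the pathways on which Rgmb, Lrig1 and Olfm4 act or depend, 0 genes passed in edgeR. Of 24 BMP genes 2 were under an unadjusted p of 0.05, as were 12.2% of all genes. The 2 were the receptors Bmpr1a and Acvr2a, with -0.25 ± 0.0825 and -0.26 ± 0.110 (edgeR adjusted p = 0.314 and 0.378). In the EGF receptor axis 11 of 13 tested genes had a negative log2 fold change (median -0.20), while 53.9% of all genes had a positive one. Of the 13, 3 were under 0.05, against 12.2% of all genes: the growth factor Areg (-0.42 ± 0.180) and the receptors Erbb3 and Erbb2. Erbb3 was at 337 to 479 CPM in control, at 431.2 CPM in RetSat ko 1 and at 197.1 to 299.3 CPM in RetSat ko 2 to 5, and Erbb2 at 157.6 to 197.3 CPM in control and 117.7 to 180.2 CPM in RetSat ko. Their log2 fold changes were -0.49 ± 0.194 and -0.29 ± 0.110 (edgeR adjusted p = 0.355 and 0.331), and -0.69 and -0.38 without RetSat ko 1 (adjusted p = 0.0319 and 0.0469). Of 13 Notch genes 1 was under 0.05, the ligand Jag1 with 0.31 ± 0.0924, and Hes1, a target that restrains secretory fate, had 0.18 ± 0.0905 (edgeR adjusted p = 0.291 and 0.432).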

How the data were processed

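The deposited values are raw counts per gene from 10 libraries, 1 per file. Per the submitters' processing notes, the tools were Trimmomatic, STAR and featureCounts 2.0.1 on GRCm39. Per the file headers, exons were counted by gene in GENCODE M28 with no option for strand, read pairs or multiple alignments, so overlapping genes cannot be separated. Symbols were matched by identifier for 52081 of 55414 genes (94.0%).

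Genes were kept with filterByExpr, scaled with TMM and compared with edgeR 4.0.16 in R 4.3.3 by its robust quasi-likelihood F-test on genotype alone, and p was adjusted by Benjamini-Hochberg over 18654 genes. The SE is the log2 fold change over the root of F, and intervals are 95% on the moderated degrees of freedom. CPM and RPKM use the TMM-scaled totals, and log2 CPM has a prior count of 2. Correlations used 100000 permutations, two-sided. The lists of pathway and marker genes are named in the text, most with their counts. The fibroblast marker list, of 10 genes, is named only here. Of each pathway list the 2 tested genes with the smallest p were named, with others where a count turned on them, and the 5 genes most like Lgr5. The steps were tested on simulated counts. Depth was 102844680 to 128730695 counts per library.

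As alternatives, the scaling was changed to RLE or upper quartile, the filter was dropped or set to 1 CPM in 5 libraries, and DESeq2 1.42.0 and limma-voom (limma 3.58.1, sample weights off or on) were run. Others used non-robust dispersion, a block on replicate number, and fits without single libraries or those rich in acinar, B cell or smooth muscle transcripts. The 10 genes, the lists and these alternatives were chosen with earlier results of these data known.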

Additional observations from a re-analysis of the deposited data

Results flagged for a closer look

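Of 20 groups of 5 libraries (10 genes in each genotype), 4 held a library far from the others. Chance gives about 1 in 20 for independent, normally spread values. The 20 groups share the same 10 libraries and the genes varied together, so the 4 cannot be set against that rate. Lgr5 had 3.16 CPM in control 4, below the remaining 4 controls at 4.96 to 5.56 CPM. RetSat ko 1 had 3.56 CPM of Lgr5, where the rest of its group had 5.94 to 6.35 CPM. The same library had 34.9 CPM of Lrig1, where the rest had 46.9 to 50.9 CPM. Tnfrsf19 had 1.84 CPM in control 3 and 2.73 to 2.94 CPM in the remaining 4 controls, and control 3 also had the lowest sum of smooth muscle markers, 215.2 CPM.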

How the results depend on the processing

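Over 22 alternatives, 216 of 220 fold changes of the 10 genes kept their direction and side of the threshold. The exceptions were Rgmb without RetSat ko 1 (adjusted p = 0.0484), Lgr5 (-0.024) and Tnfrsf19 (-0.10) without the 3 B cell-rich libraries, and Tnfrsf19 (-0.11) without the 2 highest in smooth muscle transcripts. The cause was not tested. Those fits held 4 against 3 and 5 against 3 libraries. The number past an adjusted p of 0.05, 0 in edgeR, ranged from 0 to 1 with 1 library left out. The number under an unadjusted p of 0.05, 2 with all libraries, ranged from 1 to 8 with 1 library left out and was 4 with no filter, 6 with sample weights, 4 without the acinar-rich libraries and 0 without those rich in B cell or smooth muscle transcripts. Of all genes, 8.53%, 22.3%, 16.3%, 4.38% and 5.36% were under it in those fits, in that order. Pathway genes past the threshold, 0 in edgeR, were 3 in DESeq2 and 0 to 8 with 1 library left out. With the replicate number as a block, 0 of the 10 genes passed, 2 were under 0.05 and the median was 0.20. Libraries of the same number did not deviate together (r from -0.28 to -0.00025). These values cannot settle whether the libraries were paired, and the labels do not say that they were. Over all genes, edgeR called 6, against 846 without RetSat ko 1 and 123 in DESeq2.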
